A study of Mus musculus with 18 samples.

Results

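Clustered CLK:BMAL1 sites were sites whose surrounding region of 3 kb shared at least 1 bp with that of another site on the same chromosome, and chains of such overlaps formed a cluster. By this rule 630 of 3217 sites, 19.6% (exact 95% binomial interval 18.2 to 21.0%), fell into 281 clusters, and 2587 sites stood alone. The rule used only position, so distances below 3 kb are given by it and are described without a test. The site list names no sample, and the animals its peaks were called from are not stated; its identifiers begin with Koike_CLKBMAL1. The libraries of the series come from livers of adult C57BL/6 mice, 3 to 6 months old and kept for at least 2 weeks in cycles of 12 h light and 12 h dark. CLK was immunoprecipitated (ChIP) at ZT06 and ZT22, hours counted from lights on, from formaldehyde-crosslinked nuclei whose chromatin was sonicated or digested with micrococcal nuclease (MNase). Each of the 6 groups held 3 libraries, from mice numbered 28, 29 and 30, which makes 18 in all. Both times were covered by ChIP of MNase-digested chromatin, by ChIP of sonicated chromatin, and by sonicated input, which saw no antibody. All animals were of the same strain and labelled wild type (WT) in the sample titles, without a genetic change named by the labels, and no group lacked CLK or BMAL1. Whole liver was used, so cell types other than hepatocytes contributed chromatin, and no expression was measured by which the tissue could be checked.

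CLK and BMAL1 are the paired activators at the head of the mammalian circadian clock. They bind short DNA elements called E-boxes and drive genes that include their own repressors, which closes a daily feedback loop. In liver they also reach many metabolic genes. Several E-boxes lie close together in some of their best known target genes, so that neighbouring binding events within a gene are a familiar feature of this factor.

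Clusters were mostly pairs. There were 232 clusters of 2 sites, 82.6% of all clusters, and they held 464 sites. Another 34 clusters held 3 sites, 12 held 4, 2 held 5, and 1 held 6. From the first to the last midpoint the median extent was 475 bp in clusters of 2, 1207 bp in clusters of 3, and 1995 bp in the 15 clusters of 4 or more, whose longest reached 4030 bp. Larger clusters spread over more DNA in these medians; the rule bounds only the step between neighbours.

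Within clusters, neighbouring sites lay much closer than the rule required. The 349 neighbouring pairs had midpoints a median of 440 bp apart, with quartiles at 259.5 and 1345 bp and a range of 4.5 to 2990 bp. Of these pairs 183, 52.4%, were under 500 bp apart, and 42, 12.0%, lay between 2000 and 3000 bp. The window from 250 to 500 bp alone held 103 pairs, against 27 in the window from 500 to 750 bp. Beyond the limit of the rule the number of pairs fell on: 103 neighbouring pairs lay 3 to 6 kb apart, 78 lay 6 to 9 kb apart, and 27 lay 27 to 30 kb apart. The 349 pairs within 3 kb thus exceeded the next window of equal length 3.39-fold. Most of them lay at the shorter distances, with 273 pairs under 1500 bp and 76 between 1500 and 3000 bp.

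**Figure D1:**
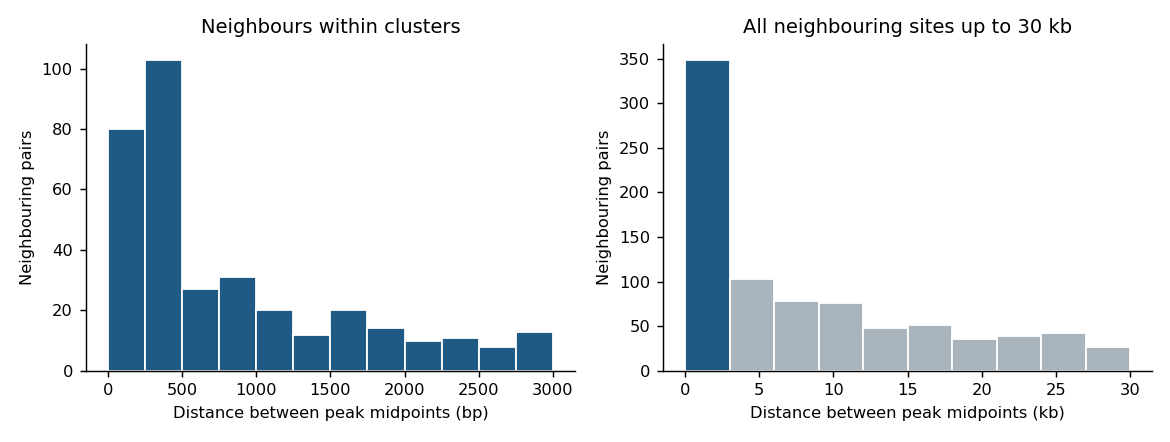
Number of neighbouring pairs of sites by the distance between their peak midpoints. The left panel shows the 349 pairs within clusters in windows of 250 bp, with the tallest bar of 103 pairs at 250 to 500 bp; the right panel shows all neighbouring pairs up to 30 kb in windows of 3 kb, where the dark bar marks the pairs that the rule joins.

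At the edge of the rule, small distances decided membership. Just inside, sites 3139 and 726 on chromosome 4 had midpoints 2990 bp apart, and so did sites 901 and 2574 on chromosome 19, with 10 bp of shared region in both cases. Just outside, sites 2106 and 2335 on chromosome 10, both in introns, lay 3030.5 bp apart and counted as single with respect to each other. Sites are named here by the number at the end of their deposited identifier (site 1 is Koike_CLKBMAL1_P0001), and positions are those of the deposited table in build mm9.

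Many neighbours were peaks that overlapped or nearly touched. Peak intervals shared sequence in 64 of the 349 pairs, 18.3%, with a median of 154 bp in common, and in 11 pairs 1 interval lay wholly within the other. In a further 69 pairs, 19.8%, the gap between the intervals was exactly 10 bp, whereas 4 pairs had a gap of exactly 20 bp and 4 a gap of exactly 30 bp. Deposited peak borders lie on a grid of 10 bp: all 3217 starts end in the digit 1 and all ends in 0 or 1. A gap of 10 or 11 bp is therefore the step that follows touching intervals. Only 1 pair had a gap of 9 or 11 bp. In all, 142 pairs (40.7%, exact 95% interval 35.5 to 46.0%) overlapped or were at most 20 bp apart, and 123 of the 281 clusters held such a pair. By contrast 85 pairs, 24.4%, had more than 1000 bp between their intervals. The peak caller's way of separating adjoining peaks is not stated, and whether such pairs are distinct binding events was not tested.

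The closest pair illustrates the overlap. On chromosome 16, site 2533 ran from 5134941 to 5135141 and lay entirely within site 1727, which ran from 5134891 to 5135200. Their midpoints were 4.5 bp apart, and both were labelled intergenic and under 10 kb. The label does not say what the 10 kb is measured from, and it is written here as distance from a gene. Sites 613 and 624 on chromosome 5, both at a transcription start site (TSS), ran from 45841571 to 45841970 and from 45841581 to 45841990, so that 389 bp were common to both. These 2 pairs are counted as separate sites throughout the deposited table.

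Joining overlapping peaks and those at most 20 bp apart into 1 site, an alternative chosen after seeing the data, left 3075 sites. Of these 387, 12.6% (exact 95% interval 11.4 to 13.8%), were clustered in 181 clusters, and the largest held 4. The median distance between neighbours rose to 1065 bp over the 206 remaining pairs. Those 206 pairs still compared with 104 at 3 to 6 kb. Values under this count are given below wherever they move a result by more than its interval.

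Low site numbers were often clustered. Of the sites numbered 1 to 10, 8 were in clusters, as were 13 of the first 20 and 40 of the first 100 (40.0%, exact 95% interval 30.3 to 50.3%). With the numbering divided into 10 equal bins, the clustered share was 28.6% (23.7 to 33.8%) in the lowest bin, sites 1 to 322, whereas in the other 9 bins it lay between 16.5 and 21.7% with no trend. What the number stands for is not stated, but peaks became narrower with it. The Spearman correlation of number and width was -0.57 over the 630 clustered and -0.51 over the 2587 single sites, given as a description. With adjoining peaks joined, 6 of 9 remaining sites with numbers up to 10 were clustered. For numbers up to 100 it was 26 of 96 (27.1%), and for numbers up to 322 it was 55 of 314 (17.5%, 13.5 to 22.2%), against 12.0% (10.8 to 13.3%) for all higher numbers. Sites are not replicates and members of a cluster share a location, so these intervals cover counting error only, and no test of clustered against single sites was made.

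**Figure D2:**
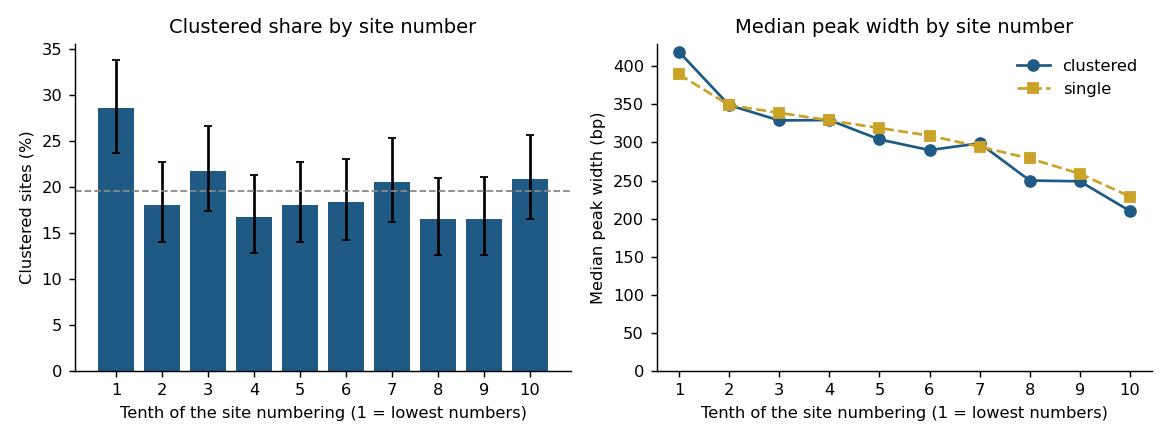
Clustered share (left, bars with exact 95% binomial intervals, dashed line at the 19.6% of all sites) and median peak width (right) in 10 equal bins of the site numbering. The lowest numbers have the highest clustered share, 28.6%, and widths of clustered and single sites fall together from 419 and 389.5 bp to 210 and 229 bp.

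The clusters of sites 1, 2 and 7 lay within or near genes and extended 2720, 4030 and 2660 bp from first to last midpoint. They held 3, 4 and 5 sites, whereas the median of 674.5 bp over the 281 clusters comes mostly from pairs. Clusters of 3 had a median extent of 1207 bp (quartiles 523 and 2090 bp). Clusters of 4 or more had one of 1995 bp (1410 and 2885 bp), so the cluster of site 7 lay within the quartiles of its size. The cluster of site 1 lay on chromosome 7 from 52960041 to 52963430. It held site 1 at a TSS, the widest peak of the table at 719 bp, followed by sites 18 and 5 in an intron with widths of 529 and 619 bp. All 3 numbers were therefore among the lowest 20. The cluster of site 2 lay on chromosome 11 from 68908211 to 68912611 and held sites 2, 8, 876 and 29 in that order, all intergenic within 10 kb of a gene. On the same chromosome, from 98634141 to 98637181, sites 72, 10, 11, 7 and 38 formed a cluster of 5, the first 3 in an intron and the last 2 at a TSS. No other cluster of 4 or more had all of its numbers below 100.

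In most of the other leading clusters, which were chosen by their lowest number, the accompanying numbers were high. On chromosome 3, from 95685771 to 95687090, site 4 was flanked by sites 2277, 299 and 668 within 1004.5 bp, 3 of the 4 at a TSS. Site 9 on chromosome 2 had site 2070 as its neighbour, 1935 bp away, both in an intron. On chromosome 1, site 13 lay 305 bp from site 1125, both at a TSS. Site 15 on chromosome 3 was paired with site 436, both in an intron, at 430 bp. Site 24 on chromosome 14 was paired with site 1130 at 884.5 bp, and site 25 on chromosome 17 with site 518 at 1500 bp. On chromosome 19, from 23209351 to 23211460, site 20 stood in a gene body with sites 2185, 277 and 2281.

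The largest clusters were not confined to low numbers or to genes. The cluster of 6 on chromosome 1, from 193268131 to 193270650, was labelled intergenic and beyond 10 kb. It held sites 479, 2656, 1202, 260, 184 and 2197 in that order, with widths of 230 to 529 bp. The second cluster of 5, on chromosome 9 from 43891521 to 43894301, was intronic and held sites 2509, 2038, 2800, 3210 and 117. Site 3210 there was 100 bp wide, the second narrowest clustered peak after the 40 bp of site 3217 on chromosome 1. Of the remaining clusters of 4, that of sites 2169, 3072, 2168 and 3059 on chromosome 9 and that of sites 2240, 2456, 2624 and 3143 on chromosome 19 had only numbers above 2000.

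**Figure D3:**
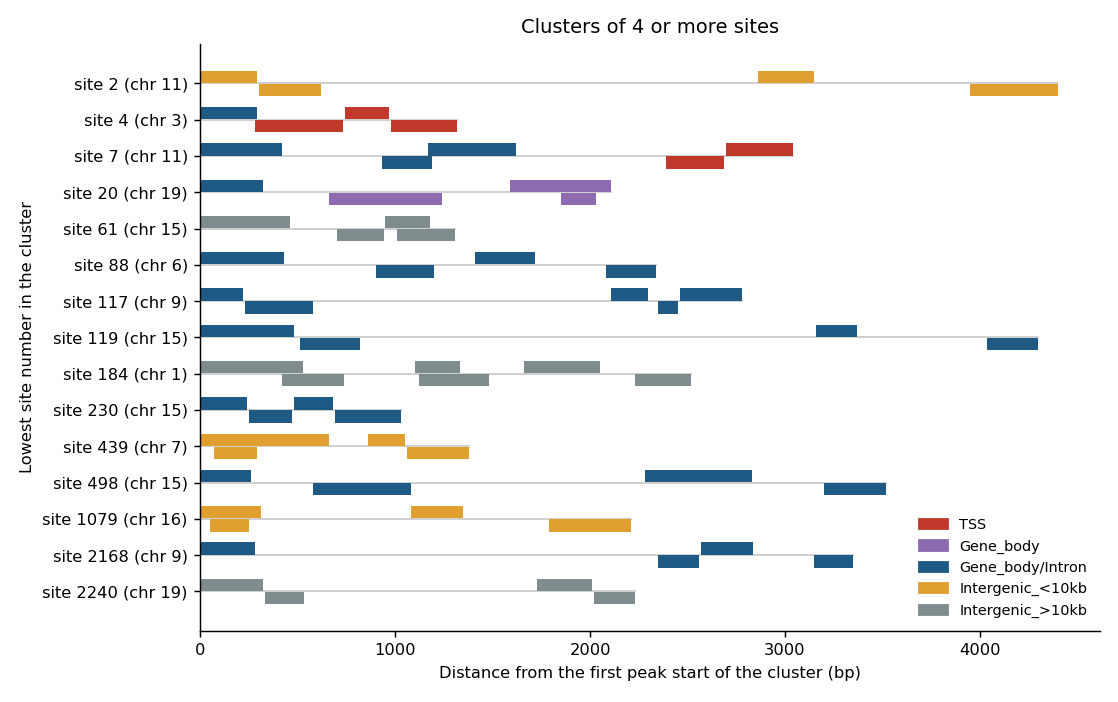
Peak intervals of the 15 clusters of 4 or more sites, to scale, from the start of each cluster's first peak, coloured by location class and labelled by the lowest site number and the chromosome. Peaks are drawn alternately above and below the line so that overlaps can be seen; the longest cluster by midpoints, that of site 2, reaches 4030 bp from first to last midpoint.

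Within a cluster the site with the lowest number tended to have the widest peak. This was so in 181 of 281 clusters (64.4%, ties counted): in 156 of 232 clusters of 2, 16 of 34 clusters of 3, and 9 of 15 larger ones. Number and width were correlated over single sites too (Spearman -0.51), and the share among neighbours outside clusters was not computed. The tendency therefore cannot be called particular to clusters. The lowest-numbered sites had a median width of 339 bp (quartiles 269 and 409 bp), and the other members one of 280 bp (229 and 339 bp). Taken as a whole, clustered and single sites had the same median width of 309 bp, with quartiles of 240 and 379 bp against 250 and 379 bp. Clustered widths reached further at both ends, from 40 to 719 bp against 120 to 679 bp, but only 2 clustered peaks were narrower and 2 wider than any single peak. With adjoining peaks joined the median width of clustered sites was 329 bp. A joined site spans all of its peaks, so it cannot be narrower than any of them. The matching median of single sites is not given here.

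The numbers of neighbours were otherwise little related. Adjacent sites in a cluster differed by a median of 911 in number. Adjacent sites in different clusters or alone differed by 934.5, and those of them within 15 kb by 956. The median number was 1521.5 in clustered sites (95% interval of the median 1382 to 1651) and 1632 in single sites (1566 to 1691). At least 1 number up to 322 was found in 74 clusters, and 2 or more in 13 clusters. The count to be expected from unrelated numbers was not computed.

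By location, clustered sites resembled single ones, with a shift within the intergenic classes. Introns held 279 of the 630 clustered sites, 44.3% (exact 95% interval 40.4 to 48.3%), and 43.8% of the single sites (41.9 to 45.7%). TSS sites made up 17.9% (15.0 to 21.2%) of the clustered and 18.2% of the single sites, and other gene-body sites 6.35% and 6.61%. All intergenic sites together made up 31.4% of either kind. Those within 10 kb of a gene, however, were 77 clustered sites, 12.2% (9.77 to 15.0%), against 8.39% (7.35 to 9.52%) of the single sites. Those farther than 10 kb were 19.2% (16.2 to 22.5%) against 23.0% (21.4 to 24.7%). Put the other way, 26.2% (21.3 to 31.6%) of the sites within 10 kb of a gene were clustered, and 16.9% (14.2 to 19.8%) of those beyond.

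Counting each cluster once, by its lowest number, gave 12.5% (8.83 to 16.9%) for intergenic sites within 10 kb, an interval that lies above the 8.39% of the single sites but overlaps their interval. For those beyond 10 kb the same count gave 18.9% (14.5 to 23.9%), an interval that includes the 23.0% of the single sites. With adjoining peaks joined, the shares within 10 kb were 12.1% of clustered and 8.59% of single sites. Beyond 10 kb they were 15.5% (12.0 to 19.5%) and 23.1% (21.5 to 24.7%).

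**Figure D4:**
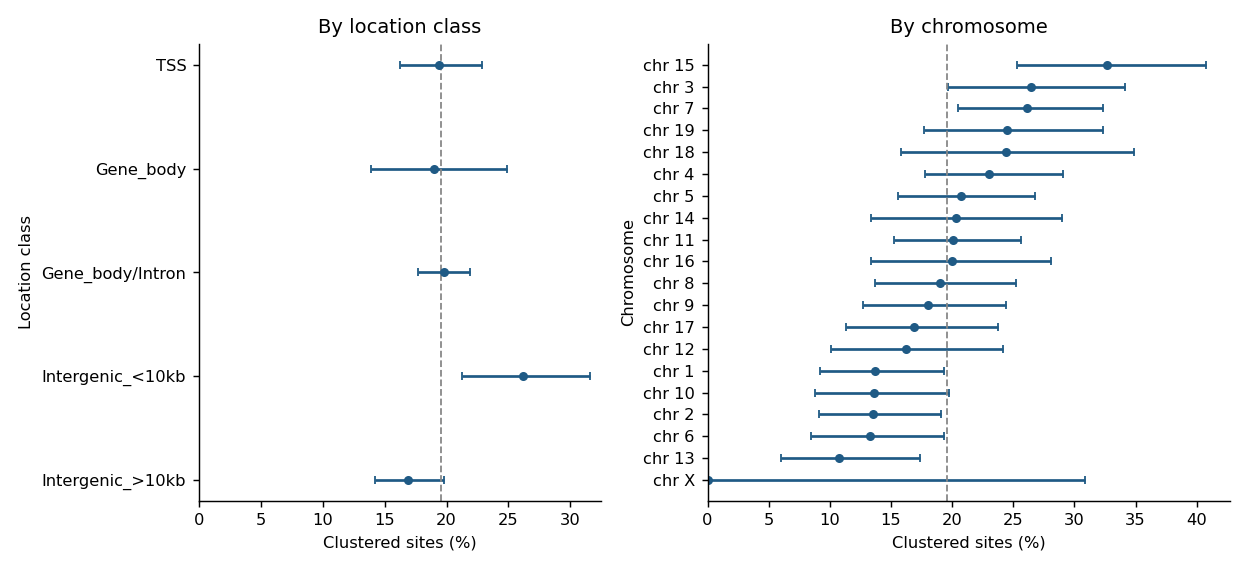
Percent of sites that are clustered, by location class (left) and by chromosome (right), with exact 95% binomial intervals and a dashed line at the 19.6% of all sites. The class within 10 kb of a gene stands highest at 26.2%, and chromosomes range from 32.7% on chromosome 15 to 10.8% on chromosome 13, with no clustered site among the 10 on chromosome X.

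Members of a cluster usually shared their class. In 225 of 281 clusters, 80.1% (exact 95% interval 74.9 to 84.6%), all sites were of 1 class: 108 were wholly intronic, 52 lay wholly beyond 10 kb from a gene, 31 wholly at a TSS, 27 wholly intergenic within 10 kb and 7 wholly in other gene-body sequence. Neighbours within a cluster had equal classes in 83.4% of 349 pairs. Neighbouring sites not in the same cluster did so in 58.7% of 305 pairs up to 15 kb apart. Among such pairs farther apart it was 33.9% of 2543. Pairs whose peaks overlapped or lay at most 20 bp apart shared a class in 93.7% of cases, and the other 207 pairs in 76.3%. With adjoining peaks joined, 74.0% of clusters were of 1 class.

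Most of the mixed clusters held a TSS site, but whether their sites lay on both sides of a gene start was not determined. Of the 56 clusters with more than 1 class, 45 contained a TSS site. In 25 of the 56 the TSS site was joined with an intronic site alone, in 10 with an intergenic site within 10 kb, and in 8 with another gene-body site. In those 45 clusters the lowest number belonged to a TSS site 25 times. A TSS site was present in 76 clusters in all, and in 31 of them no other class was.

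Chromosomes differed in how much of their sites was clustered. The share on the 19 autosomes had a median of 20%. It was highest on chromosome 15, where 50 of 153 sites were clustered (32.7%, exact 95% interval 25.3 to 40.7%), and lowest among autosomes on chromosome 13, with 14 of 130 (10.8%, 6.01 to 17.4%). The interval lay above the overall 19.6% on 3 chromosomes (15, 3 and 7) and below it on 4 (1, 2, 6 and 13), without adjustment for the number of chromosomes. Chromosome X had 10 sites and no clustered one, with an upper limit of 30.8% by the same exact interval (30% if 3 counts are taken as the limit for a count of 0). Chromosome 15 also held 4 of the 15 clusters of 4 or more, of which 3 were intronic. With adjoining peaks joined, its share was 20.1% (13.8 to 27.8%) and that of chromosome 13 was 4.76%.

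Density was counted per Mb between the first and last site of a chromosome, since no length of the mm9 chromosomes was used. Autosomes had 1.00 to 2.48 sites per Mb, the most on chromosome 19, which also had the most clustered sites per Mb at 0.61, against 0.12 on chromosome 13. The clustered share did not simply follow density: over 19 autosomes the Spearman correlation of sites per Mb with the clustered share was 0.26, given as a description. Chromosome 11, with 2.12 sites per Mb, had a share of 20.1%, and chromosome 3, with 1.04 per Mb, one of 26.5%.

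Clusters also bear on the profiles of CLK signal that the study averaged around the sites, because a neighbour's peak then lies inside the averaged region. Another midpoint lay within 1500 bp of 500 sites, 15.5% of all (14.3 to 16.8%). Such neighbours were densest 200 to 300 bp from the midpoint, at 4.72 per 100 sites, and thinned to 0.62 per 100 sites at 1400 to 1500 bp. At 500 to 1000 bp, beyond most of the central peak, 136 sites (4.23%) had a neighbour, and at 1000 to 1500 bp it was 94 sites (2.92%). The deposited profiles are means over sites, so no signal of clustered sites alone was analysed here.

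In sonicated chromatin the mean ChIP signal at 500 to 1000 bp was taken relative to the flanks from 1000 bp outward. At ZT06 this ratio was 1.07 in the libraries numbered 28 and 29 and 1.10 in that numbered 30. At ZT22 it was 1.01 in library 28 and 1.03 in libraries 29 and 30, so the libraries of the 2 times did not overlap. The log2 ratio was higher at ZT06 by 0.079 ± 0.016 (SE; n = 3 per time). An exact permutation test, two-sided, gave p = 0.1, below which 3 libraries against 3 cannot go, and an adjusted p = 0.2 over 2 tests. In the input the ratio ranged from 1.02 to 1.04 at ZT06 and from 1.01 to 1.03 at ZT22, which overlap, with a log2 difference of 0.0098 ± 0.011 (SE; n = 3 per time; p = 0.5 and adjusted p = 0.5 in the same exact test). In MNase-digested ChIP the ratio was 0.99 ± 0.01 (SD, n = 3) at each time. This outer window contains the tail of the central peak as well as neighbours. The flanks hold neighbours too, with 102 other midpoints at 1000 to 1500 bp against 154 at 500 to 1000 bp. The parts of tail and neighbours in the difference cannot be told apart in a mean over all sites. Profile files give no read counts, so the depth behind these values is unknown.

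**Figure D5:**
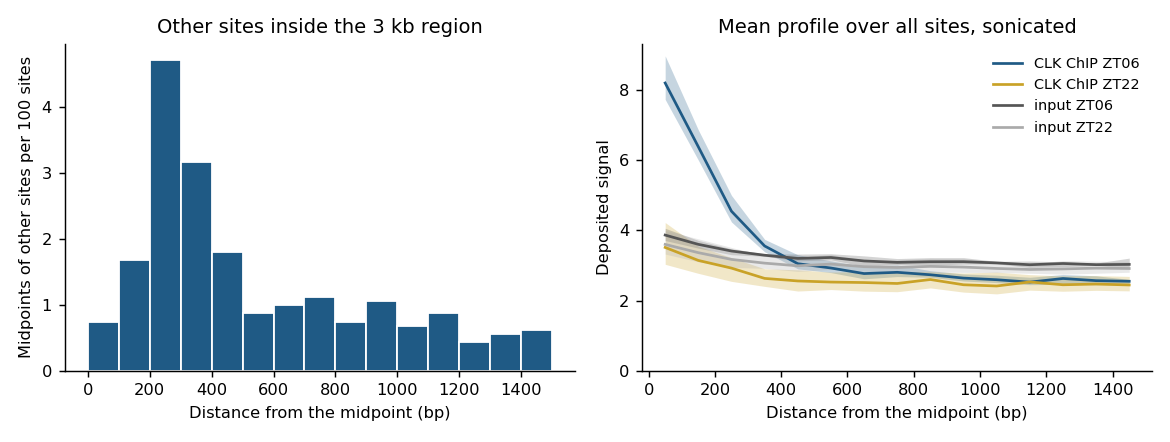
Left, midpoints of other sites per 100 sites in windows of 100 bp from the midpoint of a site, with the tallest bar of 4.72 at 200 to 300 bp. Right, deposited mean signal over all sites in sonicated chromatin against distance from the midpoint, both sides averaged, with lines for the mean and bands for the range of 3 libraries; CLK ChIP at ZT06 is the group with a high centre.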

How the data were processed

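One of the tables deposited by the authors lists 3217 CLK:BMAL1 sites by peak borders, 3 kb region and location class, with positions in bp; neither caller nor annotation is stated. Another holds mean profiles, in units of signal deposited by the authors, of 52 rows with 299 values; 16 rows match no sample and were not used. CASAVA 1.7, Bowtie and build mm9 are named per the submitters' processing notes; scaling between libraries is not given. Positions were taken as 10 bp apart and centred on the midpoint, and only profiles over all (3216) sites were used.

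Groups come from sample titles. Clusters were built with Python 3.11.15 and pandas 2.3.3, intervals (exact binomial; for medians, order statistics) with scipy 1.17.1, and the clustering was tested on simulated sites. Members, rules and named clusters (4 or more sites, the 10 lowest numbers, extreme pairs, widths and chromosomes) were chosen with earlier results of these data known. ZT06 and ZT22 were compared by the log2 ratio of signal at 500 to 1000 bp over flanks. Same-numbered sonicated ChIP libraries deviated together from their group means (r = 0.33, 0.28 and 0.57 for numbers 28, 29 and 30). A test on pairs of the same number was therefore also run. Differently numbered ChIP libraries ranged from r = -0.53 to 0.42, the highest for 28 at ZT06 with 29 at ZT22, so the numbers did not consistently mark the closest pairs. In sonicated input the same-number r was 0.08, 0.17 and 0.11. The labels do not say whether a number is the same animal at both times, nor whether replicates are more than technical. E-box content was not analysed here, as no mm9 sequence was used, and genes near the sites are not named for the same reason.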

Additional observations from a re-analysis of the deposited data

How the results depend on the processing

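Of 82 alternative values, 15 moved and 0 reversed. The other 67 were shares and medians inside the interval of the reported value, counts within 1.5 times the reported count, or log2 differences of the same sign. The count of clustered sites, 630 in 281 clusters as reported, was 500 in 226 with 1500 bp of overlap required and 762 in 336 with midpoints up to 5000 bp apart. Requiring 500 bp of overlap moved none of 15. Requiring 1500 bp moved the median distance to 334.75 bp and the clustered share of numbers 1 to 322 to 23.6%, and midpoints up to 5000 bp apart moved the median distance to 759.75 bp. These changes follow from the limit on distance. Counting 1 site per cluster, the lowest number, moved the median number to 777 and the median width to 339 bp.

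Joining peaks that overlap or lie at most 20 bp apart, chosen after seeing the data, moved 10 of 15 values. Clustered sites fell to 387 and clusters to 181, the median distance became 1064.75 bp and the median width 329 bp. The share beyond 10 kb from a gene became 15.5%, clusters of 1 class 74.0%, and the clustered share of numbers 1 to 322 17.5% and of numbers 1 to 100 27.1%. On chromosomes 15 and 13 the clustered share became 20.1% and 4.76%. Fewer sites enter by construction, and a joined site is never narrower than its peaks.

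With each mouse number left out in turn, the log2 difference between the times at 500 to 1000 bp was 0.071 to 0.089 in sonicated ChIP. In input it ranged from 0.0082 to 0.0118 (exact permutation test, smallest possible p with 2 against 2 is 0.33). With a replicate block, the exact two-sided sign-flip test on pairs gave a log2 difference of 0.079 for ChIP and 0.0098 for input (p = 0.25 in both, the smallest that 3 pairs allow); it changed no call, and no design here could pass 0.05. E-box content in either window was not run, as no mm9 genome was used. Counting intervals treat sites as independent, which members of a cluster are not.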

Other observations

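Sites numbered 1 to 400 were clustered in 107 cases, 26.8% (exact 95% interval 22.5 to 31.4%), and the 2817 higher numbers in 18.6% (17.1 to 20.1%). It is not stated whether these are the top 400 sites of the deposited profiles.

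In clusters of 3 sites, where all but the middle site stand at an end, the lowest number stood at an end in 22 of 34 cases. In all clusters of 3 or more it did so in 29 of 49, and no expected count was computed. Sites of clusters of 4 or more had a median number of 1145, with quartiles at 252.5 and 2278, and 19 of these 64 sites had numbers up to 322.

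Clustered sites at a TSS had a median number of 1296, against 1566 for single TSS sites, and a median width of 309 against 299 bp. For intergenic sites within 10 kb the median numbers were 1311 and 1595. For introns they were 1650 and 1640, and the widths 300 and 309 bp.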
